A study of Rattus norvegicus with 6 samples.

Results

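The genes described here are the ligands and receptors of transforming growth factor beta (TGF-beta): the ligand genes Tgfb1, Tgfb2 and Tgfb3 and the receptor genes Tgfbr1, Tgfbr2 and Tgfbr3. The samples are primary cardiac fibroblast cultures, made from ventricle of Sprague-Dawley rats aged 1 to 2 days. The 3 control samples received water, the 3 treated samples received pertussis toxin (PTX), and exposure lasted 24 h. PTX is a bacterial toxin that modifies G proteins of the Gi and Go type and cuts them off from their receptors; the sources used here give neither its dose nor the passage of the cells. Nothing in the labels tells whether replicates were separate cultures or isolations, so p-values reflect the spread among these samples alone, and that spread may be technical. Each sample was hybridised to its own Affymetrix array, on which a gene is read by probe sets. Members were found by name, as every probe set annotated to exactly 1 gene of the 6. This gave 8 of 8740 probe sets, 4 for ligands and 4 for receptors. They name 5 of the 6 genes: no probe set with a single gene name was annotated to Tgfbr2, and that receptor was not analysed here.

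TGF-beta ligands are secreted as latent complexes, bound to their own propeptide and to latent TGF-beta binding proteins, and are released from them by proteases, integrins or thrombospondin. The freed ligand binds the type II receptor kinase encoded by Tgfbr2, which phosphorylates the type I kinase encoded by Tgfbr1, and this in turn activates Smad transcription factors. Betaglycan, encoded by Tgfbr3, is a co-receptor without kinase activity that presents ligand and is needed most for the ligand of Tgfb2. In the heart the pathway is known for driving fibroblasts to deposit collagen and elastin and to become contractile myofibroblasts.

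Tgfb3 was the member that stood lower with PTX, on both of its probe sets, and it did so against 2 sister ligands whose groups overlapped. Its signal averaged 852 ± 70.7 in the controls and 457.9 ± 53.3 with PTX on 1 probe set (SD, n = 3 each), and 1281 ± 165 and 746 ± 100.4 on the other. Tgfb1 averaged 248 ± 88.0 and 195 ± 30.4, and Tgfb2 128.7 ± 16.2 and 122 ± 9.29. Tgfbr3 was dim, just above the filter on low signals, and was lower with PTX on 1 of its 2 probe sets without overlap, and Tgfbr1 was too dim to test. No member passed an adjusted p of 0.05 with all 6 arrays (limma).

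Control replicate 1 differed from the rest. Its log2 signals correlated with those of each other array at 0.952 to 0.960 over all probe sets, where the other 5 arrays correlated among themselves at 0.978 to 0.985. Values without that array are therefore given beside each tested member. The cultures carried strong transcripts of cardiomyocytes as well as of fibroblasts. Of 14 cardiomyocyte markers on the array, 11 were in the top 5% of signals on every array, as were 7 of 12 fibroblast markers, and none of the markers on the array was listed at 0. Summed over its markers, the cardiomyocyte signal was 296439.5 to 384451 in the controls and 256679 to 289179.8 with PTX, without overlap; 11 of its 13 tested markers had negative changes (median log2 change -0.22), and 0 passed. The macrophage and leukocyte sum, over 8 markers, was 3477 to 3532 in the controls and 4227 to 5388 with PTX, also without overlap. Of its 5 tested markers 3 were positive and 2 negative, and Lyz2 alone went from 2381 to 3445. The fibroblast sum overlapped (97476 to 116038 and 99705 to 103724), as did the endothelial sum over 5 markers (177 to 333 and 165 to 263). The smooth muscle and myofibroblast sum over 7 markers was 45422 to 57373 and 42019 to 44013, without overlap, with 3 markers positive and 4 negative and Myl9 alone going from 24174 to 18088. In cultures of this kind, fewer cells of a type and less RNA per cell cannot be told apart, and the part of these shifts in the results below was not tested.

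Tgfb3 encodes TGF-beta 3, the isoform best known from fusion of the palate. On probe set U03491_at, its signals were 772, 907 and 877 in control replicates 1 to 3 and 437, 418 and 518.5 in PTX replicates 1 to 3. All 3 PTX arrays lay below all 3 controls, and the lowest control was 1.49 times the highest PTX value. The log2 change, PTX minus control on the log2(signal + 16) scale used throughout, was -0.88 ± 0.14 (SE), which is 0.545 times the control level. Its limma p was 0.000323 before and 0.114 after Benjamini-Hochberg adjustment over all 5244 tested probe sets. By p it ranked 14th of the 5244 and 4th among those lower with PTX.

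The second Tgfb3 probe set, U03491_g_at, is named for the same GenBank sequence, so the pair is not independent evidence. It read 1390, 1362 and 1091 in the controls and 830 (replicate 1), 635 (replicate 2) and 773 (replicate 3) with PTX. The groups again did not overlap, with the lowest control at 1.31 times the highest PTX value. The log2 change was -0.77 ± 0.16, with an unadjusted p of 0.00150 and a limma adjusted p of 0.184, which ranked 11th among the lower probe sets. The PTX cultures thus held 0.588 times the control level on this probe set, close to the 0.545 of the other.

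**Figure D1:**
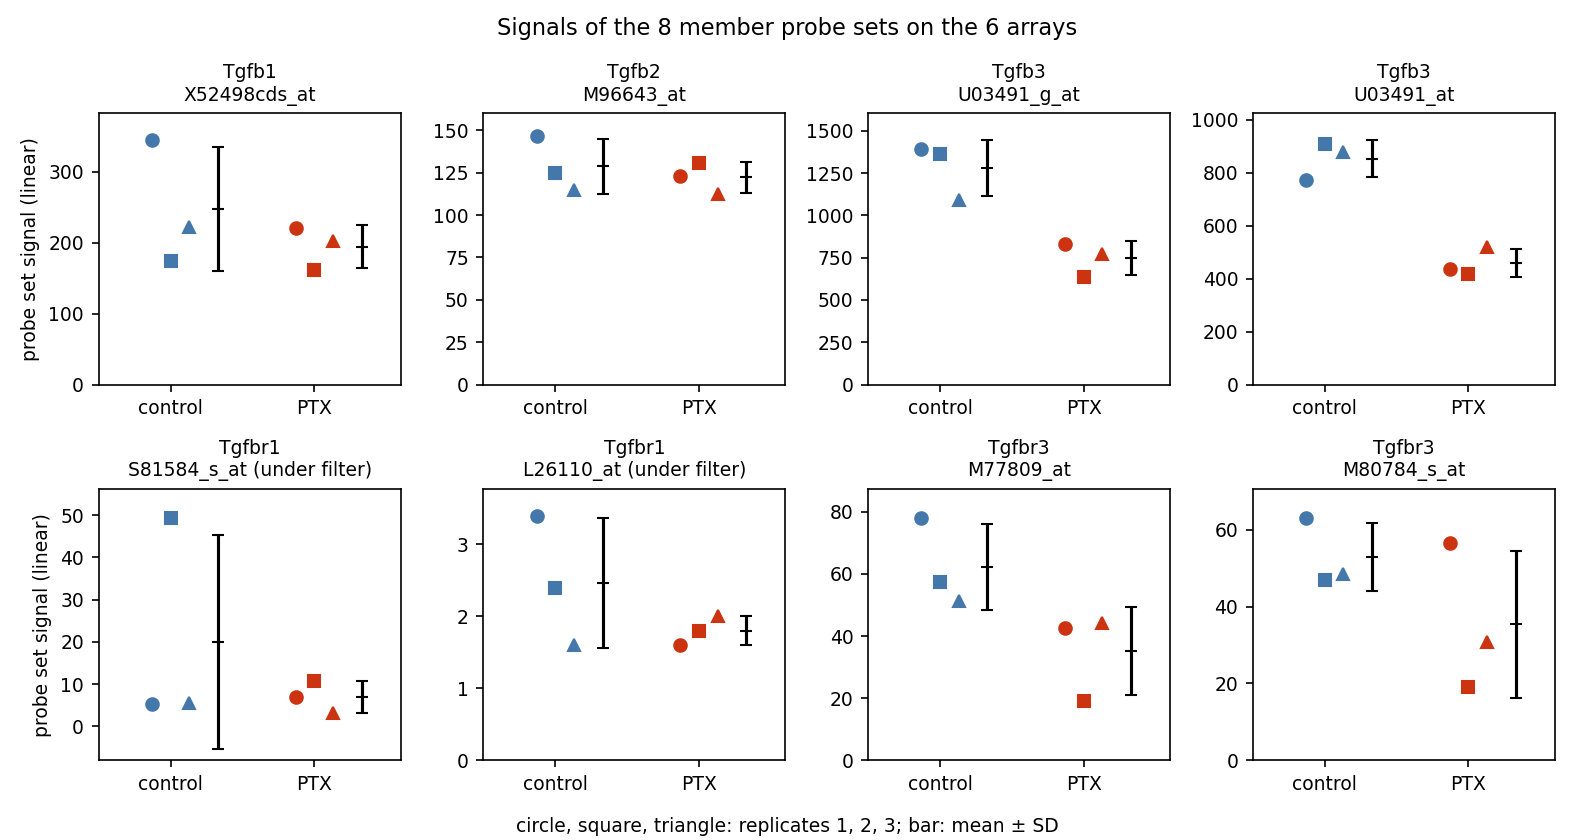
Linear signals of the 8 member probe sets on the 3 control (blue) and 3 PTX (red) arrays, with circles, squares and triangles for replicates 1, 2 and 3 and black bars for mean ± SD. Both Tgfb3 probe sets and Tgfbr3 M77809_at separate the groups, the Tgfb1 control group is spread by its replicate 1 at 345.5, and the vertical scales differ between panels.

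The adjusted p of Tgfb3 moved with the arrays that entered. Without control replicate 1 both Tgfb3 probe sets passed, at -0.94 (adjusted p = 0.00662) and -0.70 (adjusted p = 0.0342). Without PTX replicate 1, 2 or 3 the changes of U03491_at were -0.85, -0.82 and -0.97, with adjusted p of 0.623, 0.656 and 0.394. Over its 18 alternatives U03491_at ran from -0.97 to -0.81, and over its 19 U03491_g_at ran from -0.88 to -0.66, so the size moved little while the adjusted p ran from 0.00662 to 0.659 over both.

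Tgfb1 encodes TGF-beta 1, the isoform most studied in cardiac fibrosis. Its single probe set, X52498cds_at, read 345.5, 175 and 223 in the controls and 220, 161 and 202.5 with PTX. Control replicate 1 was the highest of the 6 arrays by far, control replicate 2 lay below PTX replicates 1 and 3, and the groups overlapped. The log2 change was -0.28 ± 0.25 (adjusted p = 0.616). It was -0.03 without control replicate 1 (adjusted p = 0.958), and was -0.49 without control replicate 2 and -0.16 without PTX replicate 2, so the mean difference of this ligand rested on single arrays.

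Tgfb2 encodes TGF-beta 2, the isoform needed in the embryonic heart for valves and septa. Probe set M96643_at read 147, 124.5 and 115 in the controls and 123, 131 and 112 with PTX, in replicate order. The groups lay across each other, and the 6 signals spanned a narrow range. The log2 change was -0.06 ± 0.17 (adjusted p = 0.876) and 0.02 without control replicate 1, the smallest change of any tested member.

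Tgfbr3 was read by M77809_at and M80784_s_at. The first gave 77.9, 57.3 and 51.4 in the controls and 42.7, 19 and 44.1 with PTX. The PTX arrays lay below the controls with a gap of 1.17 times, and PTX replicate 2 was the lowest. The log2 change was -0.64 ± 0.29 (unadjusted p = 0.0632, adjusted p = 0.420), -0.50 without control replicate 1 and -0.38 without PTX replicate 2. The second probe set gave 63, 47 and 48.4 against 56.4, 19 and 30.8. Here PTX replicate 1 lay among the controls and the groups overlapped (log2 change -0.48 ± 0.31, adjusted p = 0.513; -0.37 without control replicate 1). Both lay just above the filter on low signals, which left out probe sets whose mean log2 value was under the 40th percentile, equal to a signal of 33.3. M80784_s_at passed it only through the controls, its PTX mean lying under it. Over all arrays they exceeded it by 0.33 and 0.23 on the log2 scale, where the added 16 shrinks a change: the log2 change of M77809_at was -0.87 with 1 added and -0.35 with 64.

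Tgfbr1 encodes the type I receptor kinase, also called ALK5. Its probe sets L26110_at and S81584_s_at fell under that filter. L26110_at read 1.6 to 3.4 in the controls and 1.6 to 2 with PTX, between the 1.94th and 5.17th percentile of every array's signals. S81584_s_at read 5.3, 49.3 and 5.5 in the controls and 6.9, 10.7 and 3.3 with PTX, so that control replicate 2 was high and the rest near the bottom. In the fit without a filter the log2 changes were -0.05 (adjusted p = 0.894) and -0.45 (adjusted p = 0.738). These signals give no usable level for the receptor, and none is drawn from them.

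Signals of different probe sets cannot be compared as transcript levels, so the ligands have no order by abundance here. Set against the whole array, 0 of the 6 tested member probe sets passed the adjusted threshold, where 0.0763% of all 5244 tested passed in either direction and 0% passed as lower. At an unadjusted p under 0.05, 2 of the 6 were lower, both of Tgfb3, where 4.61% of all tested were lower. Groups did not overlap, with PTX lower, for 3 of the 6, against 10.6% of all tested. All 6 changes were negative, with a median of -0.56, where 52.9% of all tested were negative with a median of -0.02. Since M80784_s_at passed the filter only where it was high, these counts are not read further; without a filter all 8 member probe sets were negative (median -0.46), where 54.6% of all 8740 were. None of the 6 is among the probe sets whose names begin with rc_, and of the 2960 tested ones without that prefix 65.2% were negative, with a median of -0.10. Without control replicate 1, 5 of the 6 were negative and 2 passed, where 2.19% of all tested passed.

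**Figure D2:**
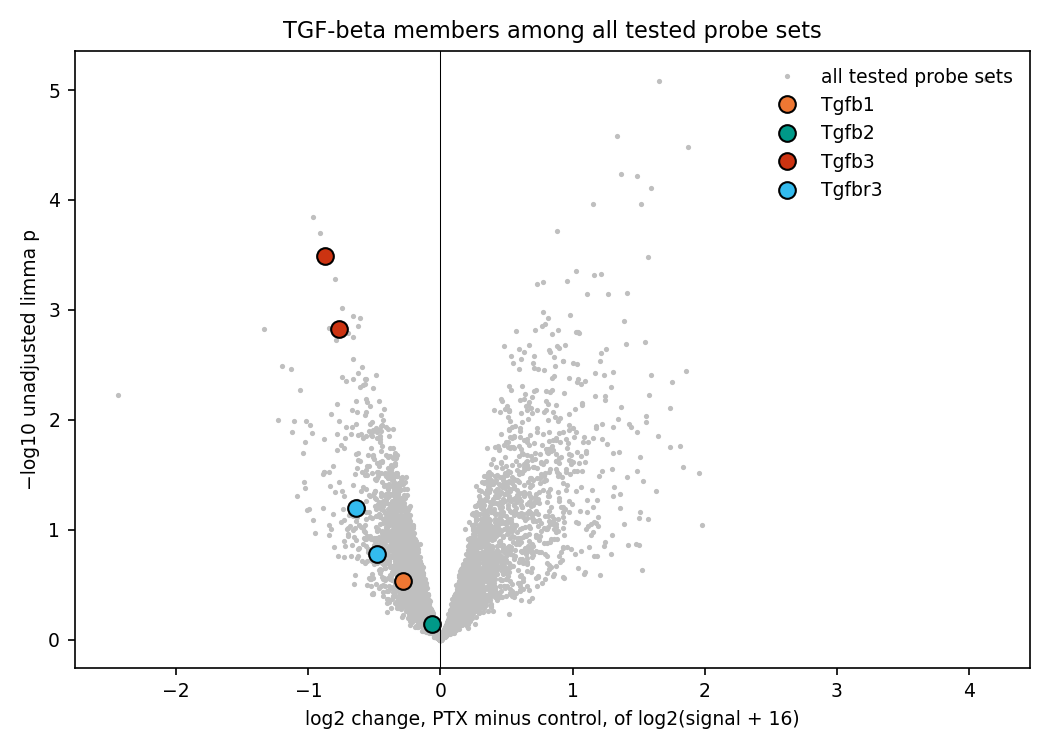
Log2 change (PTX minus control, horizontal) against -log10 of the unadjusted limma p (vertical) for all 5244 tested probe sets in grey and the 6 tested members in colour. The Tgfb3 pair lies at the upper edge of the lower-with-PTX side, at -0.88 and -0.77, and Tgfb2, at -0.06, lies near the bottom centre.

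To compare ligands directly, the difference of 2 log2 signals was taken within each array, which removes what the array scales in common. With 3 arrays against 3 an exact two-sided permutation test cannot go below p = 0.1, so no such contrast can pass 0.05. Tgfb3 minus Tgfb2 was 3.11, 3.29 and 3.08 in the controls and 2.60, 2.15 and 2.62 with PTX. The groups did not overlap, and the contrast changed by -0.70 ± 0.17 (SE; exact permutation p = 0.1, adjusted over 6 contrasts 0.2). With each array left out in turn it stayed between -0.79 and -0.55.

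Tgfb3 minus Tgfb1 was 1.96, 2.85 and 2.21 in the controls and 1.84, 1.88 and 1.85 with PTX. On this probe set, U03491_g_at, the groups did not overlap, with control replicate 1 just above the PTX arrays. The change was -0.48 ± 0.27 (exact permutation p = 0.1, adjusted 0.2), -0.67 without control replicate 1 and -0.23 without control replicate 2. The separation was lost with U03491_at, where control replicate 1 at 1.12 lay below PTX replicates 2 and 3 at 1.29 (change -0.59, exact permutation p = 0.3), and likewise with both probe sets averaged (-0.54) or with quantile normalization (-0.44). Tgfb3 minus Tgfb2 stayed apart in those 3 settings, at -0.81, -0.76 and -0.67.

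Tgfb2 minus Tgfb1 overlapped between groups and changed by 0.22 ± 0.26 (exact permutation p = 0.4, adjusted 0.4). It was 0.054 without control replicate 1, 0.41 without control replicate 2 and 0.055 without PTX replicate 2, so its size rested on single arrays. Of the ligand pairs, Tgfb3 against Tgfb2 thus separated the groups on either Tgfb3 probe set, and Tgfb3 against Tgfb1 on 1 of them.

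Among receptors only Tgfbr3 could serve in such a contrast, through M77809_at. Tgfb3 minus Tgfbr3 was 3.90, 4.23 and 4.04 in the controls and 3.85, 4.22 and 3.72 with PTX, overlapping, with a change of -0.13 ± 0.18 (exact permutation p = 0.4, adjusted 0.4). This contrast depended on the pseudocount, at 0.09 with 1 added and -0.38 with 64. Tgfb2 minus Tgfbr3 did not overlap and was higher with PTX, 0.79 to 0.96 in the controls and 1.10 to 2.07 with PTX (change 0.57 ± 0.31, exact permutation p = 0.1, adjusted 0.2; 0.27 without PTX replicate 2). Tgfb1 minus Tgfbr3 changed by 0.35 ± 0.22 with overlapping groups (exact permutation p = 0.2, adjusted 0.3), and was 0.18 without control replicate 2, 0.22 without PTX replicate 2, and 0.57 or 0.11 with 1 or 64 added.

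**Figure D3:**
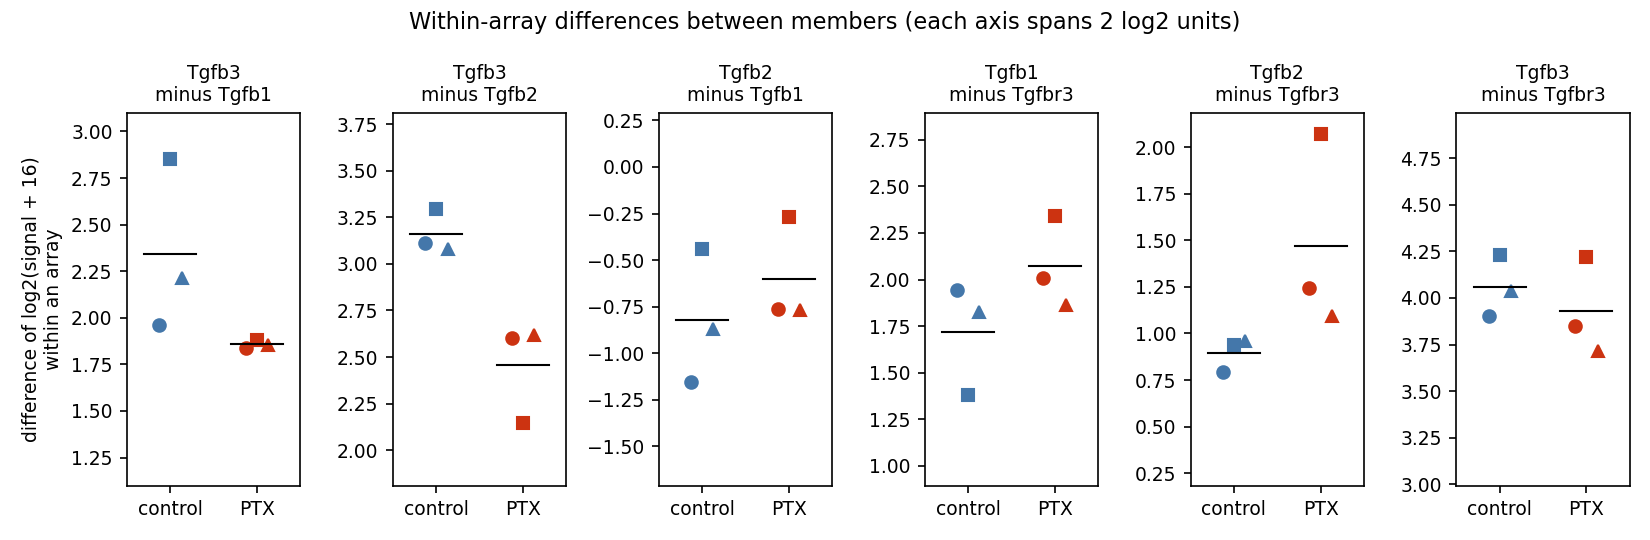
Difference of log2(signal + 16) between 2 members within each array, for 3 control (blue) and 3 PTX (red) arrays, with symbols for replicates 1 to 3 (circle, square, triangle) and lines at the means. With Tgfb3 read by U03491_g_at, Tgfb3 minus Tgfb2 and Tgfb3 minus Tgfb1 are lower on all 3 PTX arrays, the latter not so with U03491_at, with both averaged or with quantile normalization, and Tgfb3 minus Tgfbr3 overlaps.

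**Figure D4:**
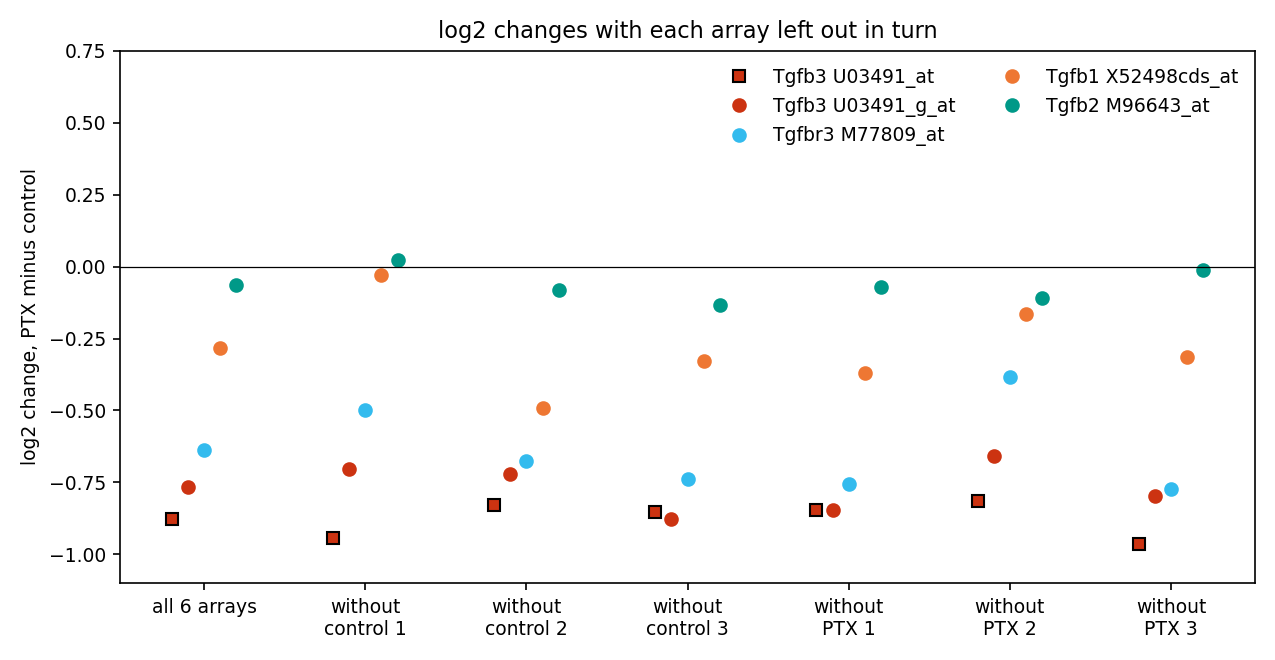
Log2 change (PTX minus control) of 5 member probe sets with all 6 arrays and with each array left out. Tgfb3 stays between -0.97 and -0.66 in every position, whereas Tgfb1 moves between -0.49 and -0.03.

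The genes around the ligands were read from lists chosen for their place in the pathway, each gene by its brightest tested probe set. An unadjusted p under 0.05 was reached by 7.97% of all tested probe sets as higher and by 4.61% as lower, and groups did not overlap with PTX higher for 12% and lower for 10.6%. No gene of any of the 6 pathway lists passed the adjusted threshold with all arrays.

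Of 12 tested genes (23 listed) of the latent complex and its activation, 8 had positive and 4 negative changes (median 0.13). Furin, the protease that cuts the ligands' propeptide, went from 1518 ± 356 to 2160 ± 87.6 (log2 change 0.53, limma adjusted p = 0.324) without overlap. Mmp9, a gelatinase that can release latent TGF-beta, went from 24.9 ± 15.0 to 77.8 ± 21.7 (1.24, adjusted p = 0.269), and Itgb3, an integrin chain, from 27.6 to 48.9 (0.63, or 0.34 without control replicate 1). Mmp9 and Itgb3 passed the filter only through their PTX arrays, which fixed their direction, and the counts of this list that include them are not read further. The brightest gene, Itgb1, had 0.25 with overlap. The binding proteins Ltbp1, Ltbp2 and Ltbp3 had 0.27, -0.24 and -0.38. Ltbp3 passed the filter only through its controls, which fixed its direction. It read 75.5 on control replicate 1 against 34.4 and 27 on the other controls, and fell under the filter without that array.

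All 9 tested ligands (20 listed) of the activin, BMP and GDF branches had negative changes, with a median of -0.17. This share was not stable, since without control replicate 1 it was 7 of 9 (median -0.24). Over all tested probe sets 52.9% were negative. None of the 9 has the rc_ prefix, and 65.2% of the tested probe sets without it were negative, with a median of -0.10. Bmp2 passed the filter only through its controls, which fixed its direction, so the count is not read further. Without a filter all 13 ligands measured were negative, where 54.6% of all 8740 probe sets were. At an unadjusted p under 0.05, 2 of the 9 were lower, Gdf15, a stress-induced cytokine, and Bmp4, a morphogen. Gdf15 read 147.5, 202.5 and 218.5 in the controls and 102, 103.5 and 152 with PTX, with overlap at control replicate 1 (log2 change -0.61, adjusted p = 0.350). Bmp4 averaged 504 ± 68.0 and 393 ± 10.4 (-0.34, adjusted p = 0.397) without overlap, as did Bmp3 (-0.49, or -0.31 without control replicate 1) and Inhba (-0.26), which encodes an activin subunit. The brightest was Bmp6, at -0.17, or -0.08 without control replicate 1.

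Among 7 tested receptors (11 listed) of those branches 5 were positive and 2 negative (median 0.16). On its brightest tested probe set 0 had an unadjusted p under 0.05 and none separated the groups. Amhr2, the receptor of anti-Müllerian hormone, had 0.64, passing the filter only through its PTX arrays, Acvr2b 0.17, Acvr1b 0.16 and the brightest, Acvrl1, an endothelial type I receptor, 0.09. The other tested Acvr2b probe set, L10640_s_at, went the opposite way, at -0.57 (limma adjusted p = 0.450). Its PTX arrays lay below the controls, by 1.005 times only. It passed the filter only through its controls, which fixed its direction. Of 4 tested Smads and partners (14 listed), Smad1, Smad2 and Smad4 had 0.15, -0.12 and 0.01 with overlap. Fkbp1a, which binds and holds the type I receptor inactive, averaged 4643 ± 1050 and 3455 ± 281 (-0.40, adjusted p = 0.397) and separated the groups by 1.01 times only, with -0.23 without control replicate 1.

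Of 11 tested antagonists and inhibitors (21 listed) 9 were positive (median 0.13), and 0 had an unadjusted p under 0.05 (limma). Without control replicate 1, 6 were positive and 5 negative, with 2 higher and 1 lower at that p. With all arrays the 2 negative ones were the only 2 that separated the groups, Fstl1 (-0.27, adjusted p = 0.401) and Bgn (-0.37, adjusted p = 0.420; -0.18 without control replicate 1), the latter encoding biglycan, a matrix proteoglycan that binds the ligands. Its relative Dcn, encoding decorin, was the brightest and had 0.16. Aspn had 0.94, or -0.07 without control replicate 1, on which its signal was 2.4 against 131 and 137 in the other controls.

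Genes known to respond to TGF-beta had changes of both signs. Of 26 tested (30 listed), 12 were positive and 14 negative (median -0.04). An unadjusted p under 0.05 was reached by 2 higher and 2 lower genes, and groups did not overlap for 3 with PTX higher and 6 with PTX lower. Most of the positive genes were read by probe sets with the rc_ prefix, and most of the negative ones by probe sets without it. Of all tested probe sets without that prefix 65.2% were negative, so the balance of signs is not read further. Eln, which encodes elastin, read 5318, 4535 and 4688 in the controls and 3118, 2063.5 and 2991 with PTX. It separated the groups by 1.45 times, with a log2 change of -0.85 ± 0.18 (adjusted p = 0.184, or 0.0342 without control replicate 1), beside which stand the -0.88 and -0.77 of Tgfb3. Postn, encoding the matricellular protein periostin, moved the opposite way, from 1843 ± 911 to 3618 ± 188 (1.07, adjusted p = 0.274; 0.79 without control replicate 1), on a probe set with the rc_ prefix. Tsc22d1, first cloned as a gene stimulated by TGF-beta, had -0.27 (adjusted p = 0.374) and Tpm1, the brightest, -0.40, or -0.17 without control replicate 1. The fibrillar collagen genes Col1a1, Col1a2 and Col3a1 had -0.37, 0.06 and -0.22, or -0.17, 0.02 and -0.15 without control replicate 1. The myofibroblast genes Acta2 and Tagln had 0.59 and -0.35, or 0.03 and -0.19 without that array. This Acta2 probe set has the rc_ prefix, and that of Tagln does not. The other Acta2 probe sets, also without the prefix, had -0.19 and -0.11. None of these genes passed the adjusted threshold with all 6 arrays, while Eln did so without control replicate 1.

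**Figure D5:**
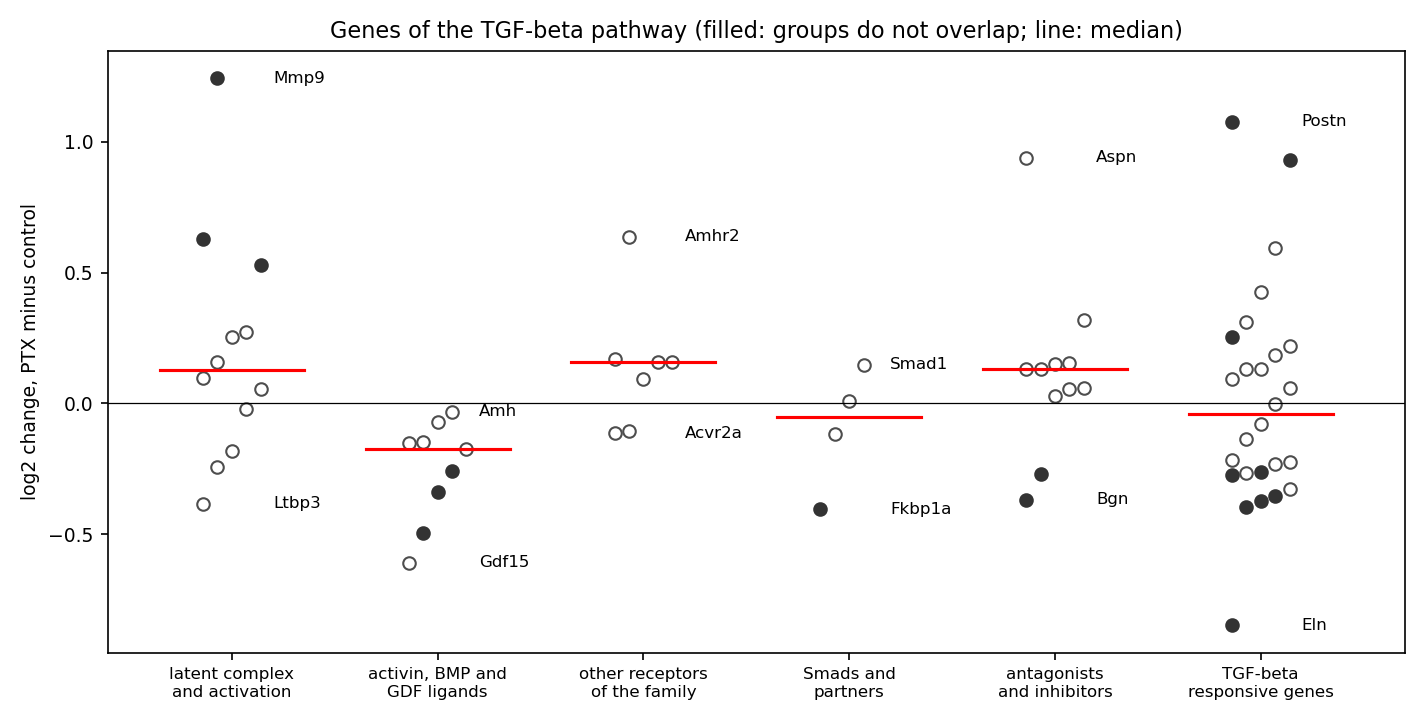
Log2 change (PTX minus control) of each tested gene in the 6 pathway lists, filled where the groups do not overlap, with the median of each list as a red line and the lowest and highest gene named. The activin, BMP and GDF ligands all lie below 0, as do 65.2% of the tested probe sets without the rc_ prefix, and Bmp2 passed the filter only through its controls. The TGF-beta responsive genes spread from Eln at -0.85 to Postn, on a probe set with the rc_ prefix, at 1.07.

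The probe sets most like each ligand over the 6 arrays were sought among 4380 others with a gene name, by Pearson correlation of log2 signals; these describe 6 points that share their arrays and carry no p. For Tgfb3 (U03491_g_at) they were Fbln5 (r = 0.988), which encodes fibulin-5, an organiser of elastic fibres, then Npw (0.986), Ly6c (0.984), Sardh (0.983) and Myh3 (0.981). Their changes with PTX ran from -0.34 for Fbln5 to -1.13 for Ly6c, none past the threshold, and 37 probe sets had r over 0.95. For Tgfb1 they were Prkcz (0.987), C1qc (0.987), Irf3 (0.986), Dmbt1 (0.982) and Vps39 (0.978), and for Tgfb2 Crybb2 (0.998), Col26a1 (0.988), Rhd (0.986), Eloa (0.985) and Lrp3 (0.981). All 10 of these, like both ligands, were highest on control replicate 1, the array that stood apart, as were Tgfb3 on U03491_g_at and all of its 5 except Fbln5. Among the members themselves, the Tgfb3 pair correlated at 0.902, U03491_g_at and Tgfbr3 M77809_at at 0.901, Tgfb3 and Tgfb1 at 0.553 (U03491_g_at) or 0.325 (U03491_at), and Tgfb3 and Tgfb2 at 0.348 or 0.0632.

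The start regions of the 6 genes were taken from RefSeq (GRCr8), as windows of 250 bases before and 50 after the listed start, with all 6 genes matched by symbol. The listed start is the outer end of the gene only for Tgfb1 and Tgfbr3; it lies 542 bases inside the gene for Tgfb2, 700 for Tgfb3, 50 for Tgfbr1 and 272 for Tgfbr2, so those windows may not hold the promoter in use. The cAMP response element TGACGTCA, bound by CREB, was searched because Gi proteins restrain cAMP synthesis. It was in none of the 6 windows on either strand and in 1.83% of 33469 windows of this length. Its core TGACG, which is contained in it, was in 1 window, that of Tgfb1, and in 21.2% of all. The AP-1 element TGAGTCA (4.63% of all windows) and the TATA box TATAAA (14.2%) were in none of the 6. The GC box GGGCGG (33.1%) was in the windows of Tgfbr1, Tgfbr2 and Tgfbr3 and in no ligand's, and CCAAT (37.5%) in those of Tgfbr1 and Tgfbr2. The Tgfb3 window had the lowest GC content of the 6, at 47.7%, against 57.7% for Tgfb1, 59% for Tgfb2, 69.7% for Tgfbr3 and 74.7% for Tgfbr1, with a median of 51.7% over all windows. The 30 bases before each ligand's listed start are shown to set the ligand that differed beside the others, at chr1:90324282-90324311 (plus strand) for Tgfb1, chr13:100792686-100792715 (minus strand) for Tgfb2 and chr6:111456947-111456976 (minus strand) for Tgfb3; capitals mark TGACG, read on the other strand.
Tgfb1: CGTCAccgcgactcctgctgctttctccct
Tgfb2: ccatttcttcctcttaagtttatttctact
Tgfb3: tttctttaaaatactcactttctcctcatc
A match describes letters and no binding, and a window without one says only that these letters are not in it.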

How the data were processed

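Per the submitters' processing notes, the authors processed the arrays in GCOS (Affymetrix); neither its version nor its scaling is stated in the sources used here. The authors deposited 1 linear intensity per probe set, with medians of 63.1 to 68.85 per array, and were used without further scaling; 0 pairs of arrays were identical. The number of arrays limits the precision. Names came from the platform annotation (7006 of 8740 probe sets with 1 symbol, 308 with several, 1426 with none), updated through Entrez IDs for 6985 with a RefSeq table (GRCr8).

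Signals were taken as log2(signal + 16), probe sets under the 40th percentile of mean log2 were left out, and PTX was compared with control by limma 3.58.1 in R 4.3.3 (lmFit, eBayes with a trend, two-sided, Benjamini-Hochberg adjustment over 5244 probe sets, threshold 0.05). A gene was represented by its brightest tested probe set. The procedure was tested on simulated data. Named are all members, up to 3 genes per list with the smallest p and the brightest, and the 5 probe sets most like each ligand; any other list gene was chosen with its values known. The members and lists were chosen with earlier results of these data known. Alternatives were pseudocounts of 1 and 64, no filter or the 60th percentile, 3 other scalings, a replicate block, eBayes without a trend or robust, array weights, omission of the rc_AA799 and rc_AA800 probe sets, averaging over the probe sets of each gene, and each array left out.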

Additional observations from a re-analysis of the deposited data

How the results depend on the processing

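Over all tested probe sets 4 passed. The count was 2 with a pseudocount of 1 or with quantile normalization, 7 with a pseudocount of 64, 9 with robust variances, 81 with array weights, 8 without the rc_AA799 and rc_AA800 probe sets, and 0 without a trend or with the replicate block; it ran from 0 to 115 with each array left out in turn, 115 without control replicate 1. Of the member probe sets 0 passed, except 2, both of Tgfb3, with array weights and without control replicate 1 (0 to 2 with each array left out). For Tgfb3 these gave -0.78 and -0.70 on U03491_g_at, which ran from -0.88 to -0.66 with arrays left out. Tgfb2 turned sign with array weights (0.00031) and without control replicate 1 (0.024), and ran from -0.13 to 0.02 with arrays left out. Tgfb3 minus Tgfb1 overlapped with the other Tgfb3 probe set, an alternative chosen after seeing the data, at -0.59. Tgfb3 minus Tgfbr3 turned sign with a pseudocount of 1 (0.092). No other tested member or contrast changed sign under the alternatives run, and no contrast could pass at this size. The 60th percentile filter removed both Tgfbr3 probe sets, which have no value there. No pairing of the arrays by replicate number was visible: same-numbered deviations correlated at -0.0929, -0.105 and -0.00799. With 3 arrays per group this cannot exclude a pairing, and the labels do not state one. With the replicate block Tgfb3 had a limma adjusted p of 0.385 on both probe sets. The causes of these changes were not tested, and a fit with an array left out also has fewer arrays. Low signals limit Tgfbr1 and Tgfbr3.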
